A study of Mus musculus with 6 samples.

Results

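The 9 long noncoding RNAs studied, a set of nuclear and imprinted RNAs, were *Malat1*, *Neat1*, *Meg3*, *Rian*, *Mirg*, *Kcnq1ot1*, *Miat*, *Snhg11* and *Tug1*, and 8 of them were analysed among the 31053 genes of the count table. They were chosen because several were low in the library of KIKO replicate 2, so the values of that library are given as a description without a test. *Rian* was not analysed here. Each of the 8 RNAs passed the filter on low counts. The set was put together as abundant RNAs, which holds less for *Miat* and *Tug1*, with no more than 98 and 62 counts in any library.

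The libraries were made from the cerebellum of WT mice, which were C57BL/6 littermates, and of knock-in knock-out (KIKO) mice, a model of Friedreich's ataxia. Bulk RNA sequencing of 2 WT libraries (replicates 1 and 2) and 3 KIKO libraries (replicates 1, 2 and 3) was compared, and no treatment is given for these groups. A WT sample that is numbered 3 was not analysed here. The labels name cerebellum and polyA RNA without an age, a sex or a sorting step, whereas the study's methods describe magnetically sorted CD45+/CD11b+ cells from 6-mo-old mice.

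Long noncoding RNAs are transcribed and often spliced like messenger RNAs but are not translated into long proteins. *Malat1* marks nuclear speckles, which store splicing factors, and *Neat1* is the scaffold of paraspeckles. *Meg3*, *Rian* and *Mirg* are transcribed from the maternal copy of the *Dlk1-Dio3* domain and are abundant in neurons, and *Kcnq1ot1* is transcribed from the paternal copy of the *Kcnq1* domain, where it silences neighbouring genes.

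The members differ in how their RNA ends, and the ends are shown because the labels name polyA RNA. The end of *Malat1* is not a poly(A) tail that was added to the RNA: it is left by RNase P, which cuts off a small tRNA-like RNA, and U-rich motifs fold with a genomically encoded A-rich tract into a triple helix. The long isoform of *Neat1* ends in the same way, whereas its short isoform is polyadenylated. Sequences are those of the transcript strand of GRCm38 (mm10) with GENCODE M21 models, written 5′ to 3′. The first and second are from Malat1-201 (chr19:5795972-5796070, minus strand) and the end of Neat1-201 (chr19:5824708-5824807, minus strand), and capitals mark the 3 longest words that both 3′ ends share, of 13, 16 and 11 bases from left to right.
Malat1: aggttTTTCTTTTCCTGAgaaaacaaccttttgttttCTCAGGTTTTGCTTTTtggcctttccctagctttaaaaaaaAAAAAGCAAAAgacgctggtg
Neat1 long isoform: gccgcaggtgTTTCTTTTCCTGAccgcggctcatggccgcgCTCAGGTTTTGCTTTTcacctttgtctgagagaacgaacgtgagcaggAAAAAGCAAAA
Capitals mark the polyadenylation signal AATAAA in the last 60 bases of the polyadenylated isoform Neat1-202 (chr19:5842307-5842366, minus strand), of Meg3-209 (chr12:109571667-109571726, plus strand) and of Kcnq1ot1-201 (chr7:143203458-143203517, minus strand).
Neat1 short isoform: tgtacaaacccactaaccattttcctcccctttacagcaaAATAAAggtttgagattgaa
Meg3: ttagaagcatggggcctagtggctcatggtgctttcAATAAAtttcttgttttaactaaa
Kcnq1ot1: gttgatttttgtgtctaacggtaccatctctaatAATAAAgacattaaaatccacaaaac

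The word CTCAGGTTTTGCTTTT followed within 110 bases by AAAAAGCAAAA was found on the transcript strand of 2 of 55450 annotated genes (0.00361%), and these were *Malat1* and *Neat1*, from which the words were taken. The A-rich tract of *Malat1* holds a run of 12 A, and 292 bases of the annotated transcript follow the tract. Longer A runs lie inside *Meg3* (16 A) and *Kcnq1ot1* (41 A), whose longest transcripts have 14548 and 93092 bases. A polyadenylation signal (AATAAA or ATTAAA) was found in the last 50 bases of the longest annotated transcript of each of the 8 members except *Neat1*, and so also at the annotated end of Malat1-201, beyond the tract. The longest run was 7 A in *Neat1*, 5 A in *Mirg*, 4 A in *Miat*, and 8 A in both *Snhg11* and *Tug1*.

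*Malat1* (chromosome 19, 5795690 to 5802672) is a single exon and lies 22035 bases from *Neat1* (chromosome 19, 5824708 to 5845478), on the same strand. *Meg3* (chromosome 12, 109541001 to 109571726) and *Mirg* (chromosome 12, 109729764 to 109749460), a host of 14 annotated microRNA hairpins, lie on the plus strand, and 208460 bases separate the start of the first from the end of the second. *Kcnq1ot1* (chromosome 7, 143203458 to 143296549) runs antisense within *Kcnq1*. *Miat* (chromosome 5, 112213228 to 112229395) is a nuclear RNA of neurons, *Snhg11* (chromosome 2, 158375638 to 158386145) is a small nucleolar RNA host gene that GENCODE M21 lists as protein-coding, and *Tug1* (chromosome 11, 3639785 to 3649673) shares 483 exon bases with the opposite-strand gene *Morc2a*. Reads of overlapping genes on opposite strands cannot be told apart without the strand setting of the counting, which is not given in the sources used here.

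WT replicates 1 and 2 held 1044760 and 1351339 counts, and KIKO replicates 1, 2 and 3 held 1281661, 1241997 and 1013107. Values below are normalized CPM, counts brought to one library size with TMM factors. The floor of 3 counts equals a CPM between 2.28 and 3.04 and covers counting error only.

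KIKO replicate 2 stood apart from the other libraries. Across the 10889 genes tested, which are not independent replicates, its log2 CPM correlated with the other 4 libraries at r from 0.63 to 0.703, compared with 0.866 to 0.918 among those 4. Its CPM lay outside the range of the other 4 libraries in 71.1% of the genes tested. The common biological coefficient of variation was 0.468 with KIKO replicate 2 and 0.238 without it. Microglial markers were present in each library, as were those of neurons, oligodendrocytes and the choroid plexus.

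*Malat1* had the highest CPM of the members in each of the 4 libraries other than KIKO replicate 2, and its lowest CPM by far in that library. It had 38300 and 28490 CPM in WT replicates 1 and 2, and 28370, 765 and 25850 in KIKO replicates 1, 2 and 3. The WT values were above each KIKO value, by a small margin between WT replicate 2 and KIKO replicate 1, while KIKO replicate 2 was far below every other library. *Malat1* took 3.68%, 2.78%, 2.81%, 0.0797% and 2.51% of all counts in these libraries, in the same order. Its level in KIKO replicate 2 was 39.1-fold below the mean of the other 4 libraries, a log2 difference of −5.29 beside an SD of 0.25 among those 4, which ranked 135 from the lowest among 10889 genes tested.

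*Neat1*, the neighbour of *Malat1* with the same kind of 3′ end in its long isoform, went the other way in KIKO replicate 2. It had 676.4 and 945 CPM in WT replicates 1 and 2, and 648.3, 1206 and 828 in KIKO replicates 1, 2 and 3. The other KIKO libraries overlapped with WT, and KIKO replicate 2 was above all of them, 1.58-fold over the mean of the other 4. The number of *Malat1* counts per *Neat1* count was 56.6 and 30.2 in WT replicates 1 and 2, 43.8 and 31.2 in KIKO replicates 1 and 3, and 0.634 in KIKO replicate 2. The counts are per gene, so the isoforms of *Neat1* cannot be told apart.

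**Figure D1:**
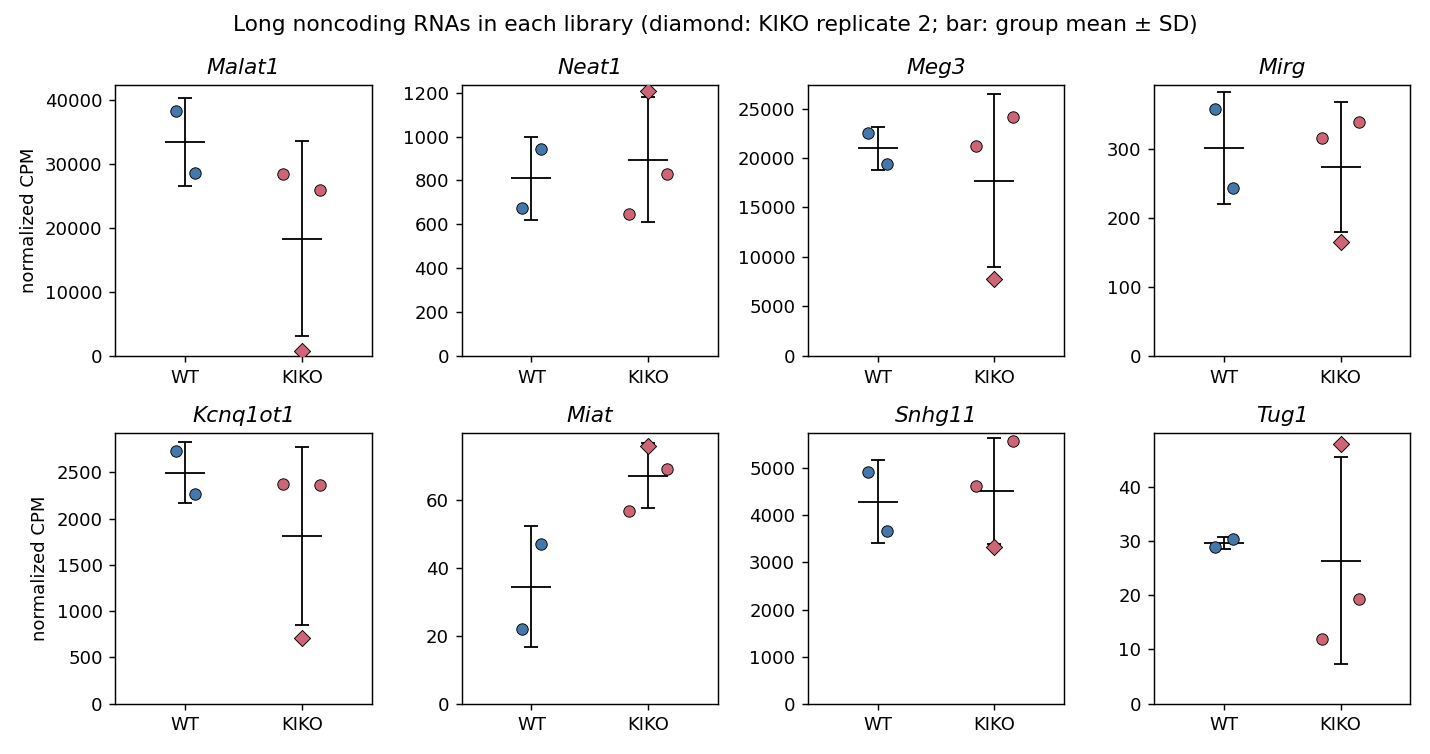
Normalized CPM of each RNA (vertical axes, from 0, each with its own scale) in the WT and KIKO libraries, with the group mean and SD as bars and KIKO replicate 2 as a diamond. The diamond is the lowest of the 5 values for *Malat1*, *Meg3*, *Mirg*, *Kcnq1ot1* and *Snhg11* and the highest for *Neat1*, *Miat* and *Tug1*.

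The imprinted RNAs of the *Dlk1-Dio3* domain were both lowest in KIKO replicate 2, to different degrees. *Meg3* had 22520 and 19410 CPM in WT replicates 1 and 2, and 21170, 7778 and 24190 in KIKO replicates 1, 2 and 3. *Mirg* had 358.6, 244.2, 316.2, 165.4 and 339.9 CPM in the same order. For both RNAs KIKO replicates 1 and 3 overlapped with WT, and KIKO replicate 2 was lower than the mean of the other 4 libraries by 2.8-fold for *Meg3* and 1.88-fold for *Mirg*. *Meg3* had 62.8 and 79.5 counts per *Mirg* count in WT replicates 1 and 2, 66.9 and 71.2 in KIKO replicates 1 and 3, and 47 in KIKO replicate 2. *Dlk1*, a growth-regulating gene that the domain expresses from the paternal copy, had 9.96 and 15.17 CPM in WT replicates 1 and 2, 18.93 and 12.18 in KIKO replicates 1 and 3, and 0 in KIKO replicate 2. *B830012L14Rik*, the most abundant of the other genes listed for the domain, had 47.81 and 40.96 CPM in WT replicates 1 and 2, 60.72 and 82.2 in KIKO replicates 1 and 3, and 60.27 in KIKO replicate 2, within the range of the others. *Rtl1* was at or below 0.79 CPM and *Dio3* at 0 in every library.

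*Kcnq1ot1* had 2728 and 2262 CPM in WT replicates 1 and 2, and 2371, 707.1 and 2364 in KIKO replicates 1, 2 and 3. KIKO replicates 1 and 3 lay within the WT values, and KIKO replicate 2 was 3.43-fold below the mean of the other 4 libraries. *Cdkn1c*, an inhibitor of the cell cycle in the same imprinted domain, had 41.84 and 56.13 CPM in WT replicates 1 and 2, 25.24 and 19.28 in KIKO replicates 1 and 3, and 2.32 in KIKO replicate 2. *Kcnq1* itself, which encodes a potassium channel, had 10.05 CPM in KIKO replicate 2, 2.28 in WT replicate 2 and 0 in the other libraries.

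*Snhg11*, which is abundant in neurons, had the smallest difference of the 8 members between KIKO replicate 2 and the others. It had 4914 and 3672 CPM in WT replicates 1 and 2, and 4628, 3330 and 5581 in KIKO replicates 1, 2 and 3. KIKO replicate 2 was the lowest, 1.4-fold below the mean of the other 4 libraries, but close to WT replicate 2.

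The least abundant members, *Miat* and *Tug1*, rest on few reads. *Miat* had 22 and 62 counts in WT replicates 1 and 2 and 72, 98 and 68 counts in KIKO replicates 1, 2 and 3, or 21.91, 47.02, 56.78, 75.73 and 69 CPM. Every KIKO value was above both WT values. *Tug1*, a nuclear RNA of many tissues, had 29 and 40 counts in WT and 15, 62 and 19 counts in KIKO libraries, or 28.89, 30.34, 11.83, 47.91 and 19.28 CPM. KIKO replicates 1 and 3 were below WT and KIKO replicate 2 was above it. KIKO replicate 2 was 1.68-fold above the mean of the other 4 libraries for *Miat* and 2.23-fold for *Tug1*, whose values differed among those 4 by up to 3.15-fold and 2.56-fold.

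Per kilobase of merged exon, levels in the 4 libraries other than KIKO replicate 2 were ordered from *Malat1*, with 4330 ± 788 CPM per kilobase (SD, n = 4), through *Meg3* with 1210 ± 112, *Snhg11* with 551 ± 93, *Mirg* with 43.2 ± 6.87, *Neat1* with 37.3 ± 6.67, *Kcnq1ot1* with 26.1 ± 2.19 and *Miat* with 5.24 ± 2.15 to *Tug1* with 2.32 ± 0.893. The ranges of *Mirg* and *Neat1* overlapped, as did those of *Miat* and *Tug1*, and those of the other neighbours in this order did not. In KIKO replicate 2, *Malat1* was at 110 CPM per kilobase and the order began with *Meg3* at 430 and *Snhg11* at 391. Dividing by length assumes that reads cover the whole of each transcript, which was not checked. The labels and the study's methods name different library kits, so the order may not be one of RNA levels.

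In KIKO replicate 2, 5 of the 8 members were lower than in each of the other 4 libraries, beside 37.3% of all genes tested, and 3 of 8 were higher, beside 33.8%. As the members were chosen on that library, nothing is read from these counts. The median log2 difference was −0.02 over all genes tested, −0.01 over 10641 protein-coding genes and −0.91 over 241 lincRNA and antisense genes, of which 48.1% were lower by more than 1, compared with 24.2% of all genes. Without the members, the median over the remaining 234 lincRNA and antisense genes was −0.91. The filter on low counts kept a scarce gene that was absent from KIKO replicate 2 alone, but dropped a gene seen only there. Scarce genes can therefore lean towards lower values in this difference, and the classes were not matched by level.

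**Figure D2:**
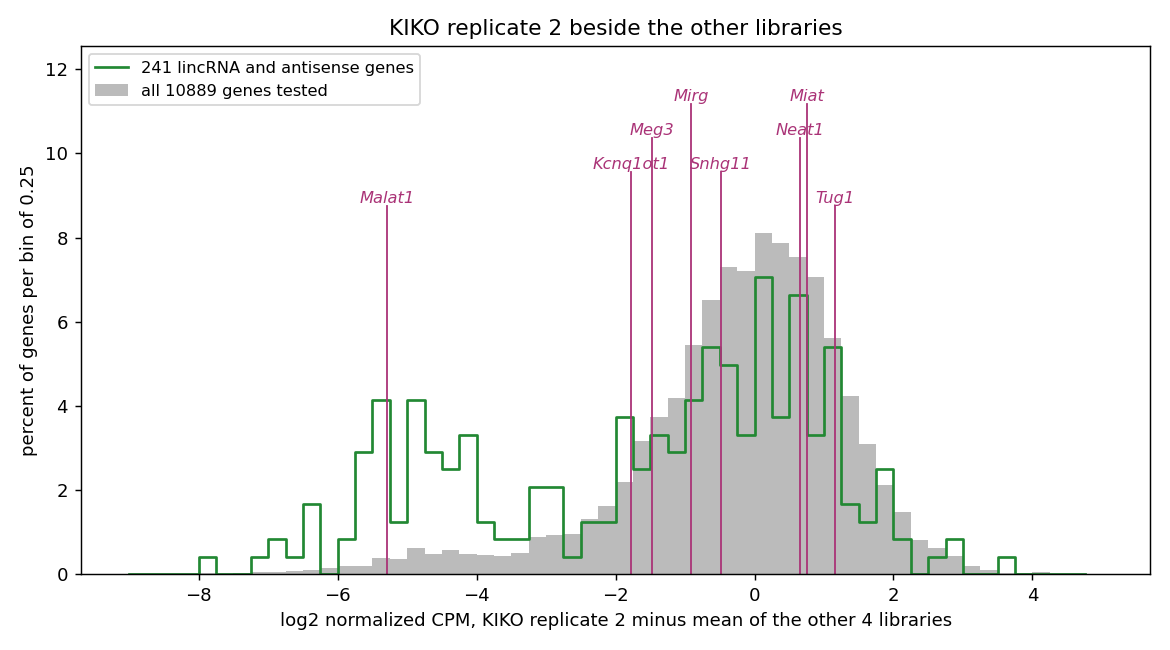
Percent of genes (vertical axis) by their log2 CPM in KIKO replicate 2 minus the mean of the other 4 libraries (horizontal axis, bins of 0.25), for all 10889 genes tested (grey bars) and 241 lincRNA and antisense genes (green line), with vertical lines at the 8 RNAs. *Malat1* at −5.29 lies at the far left, in a bin of 42 genes, 10 of them lincRNA or antisense genes. *Neat1*, *Miat* and *Tug1* lie to the right of 0.

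The share of counts in lincRNAs was 12.6% and 9.58% in WT replicates 1 and 2, 13.7% and 14.4% in KIKO replicates 1 and 3, and 1.96% in KIKO replicate 2. The 8 RNAs together held 6.68% and 5.38%, 5.7% and 5.76%, and 1.47% of counts in the same order. *Gm42418*, a lincRNA that overlaps ribosomal RNA sequence, held 5.77% and 4.03%, 7.78% and 8.47%, and 0.344%. It held more counts than *Meg3* in the 4 libraries other than KIKO replicate 2 and fewer in KIKO replicate 2, where *Meg3* held 0.81%. *Xist*, the RNA that coats the inactive X chromosome, had 2225.31 and 2166.17 CPM in WT replicates 1 and 2, 2242.09 and 2299.46 in KIKO replicates 1 and 3, and 649.1 in KIKO replicate 2, where it was lower than in every other library. No gene had 3 counts or fewer in any 1 of the other 4 libraries and at least 50 in each remaining one, whereas 22 genes, 1 of them a long noncoding RNA, had 3 or fewer in KIKO replicate 2.

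Cell-type markers moved in KIKO replicate 2 as well. The 9 neuronal markers summed to 4812 and 3119 CPM in WT replicates 1 and 2, 4519 and 4851 in KIKO replicates 1 and 3, and 2287 in KIKO replicate 2. There, 8 of the 9 were lower than in every other library, beside 37.3% of all genes tested. The same held for 4 of 8 granule neuron markers and 3 of 6 Purkinje neuron markers. The most abundant of the 9, *Rbfox3*, had 1462, 804.7, 1339, 421.9 and 1479 CPM in WT replicates 1 and 2 and KIKO replicates 1, 2 and 3. The 11 microglial markers summed to 5304, 6765, 4699, 12050 and 5410 CPM in the same order, with *Csf1r* the most abundant, and the 8 oligodendrocyte markers to 5327, 12120, 4752, 19300 and 6109. Both sums were highest in KIKO replicate 2. In bulk samples, fewer cells of a type and less RNA per cell cannot be told apart.

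Per count of neuronal markers, *Mirg* was 0.0745 and 0.0783 in WT replicates 1 and 2, 0.07 and 0.0701 in KIKO replicates 1 and 3, and 0.0723 in KIKO replicate 2, which was within the range of the others. *Snhg11* per neuronal marker count was highest in KIKO replicate 2, at 1.46 compared with 1.02 to 1.18. *Meg3* was lowest there, at 3.4 compared with 4.68 to 6.22, and *Malat1* was 0.334 compared with 5.33 to 9.14. The part of the cell-type markers in these levels was not tested.

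The mitochondrially encoded genes summed to 44960, 78170, 38370, 84210 and 42440 CPM in WT replicates 1 and 2 and KIKO replicates 1, 2 and 3, and the genes of cytosolic ribosomal proteins to 18060, 22270, 17520, 35300 and 17870. Both were highest in KIKO replicate 2, followed by WT replicate 2. The mRNAs of 28 nuclear speckle proteins, which share their compartment with *Malat1*, summed to 19220, 15460, 16480, 9503 and 16460, with the lowest sum in KIKO replicate 2. There, 14 of the 28 were lower than in each of the other 4 libraries, beside 37.3% of all genes, and 11 were higher, beside 33.8%, so the list did not move one way. The 22 paraspeckle protein mRNAs, which belong to the compartment built on *Neat1*, summed to between 3064 and 3590. The part of these library measures in the levels of the long noncoding RNAs was not tested.

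**Figure D3:**
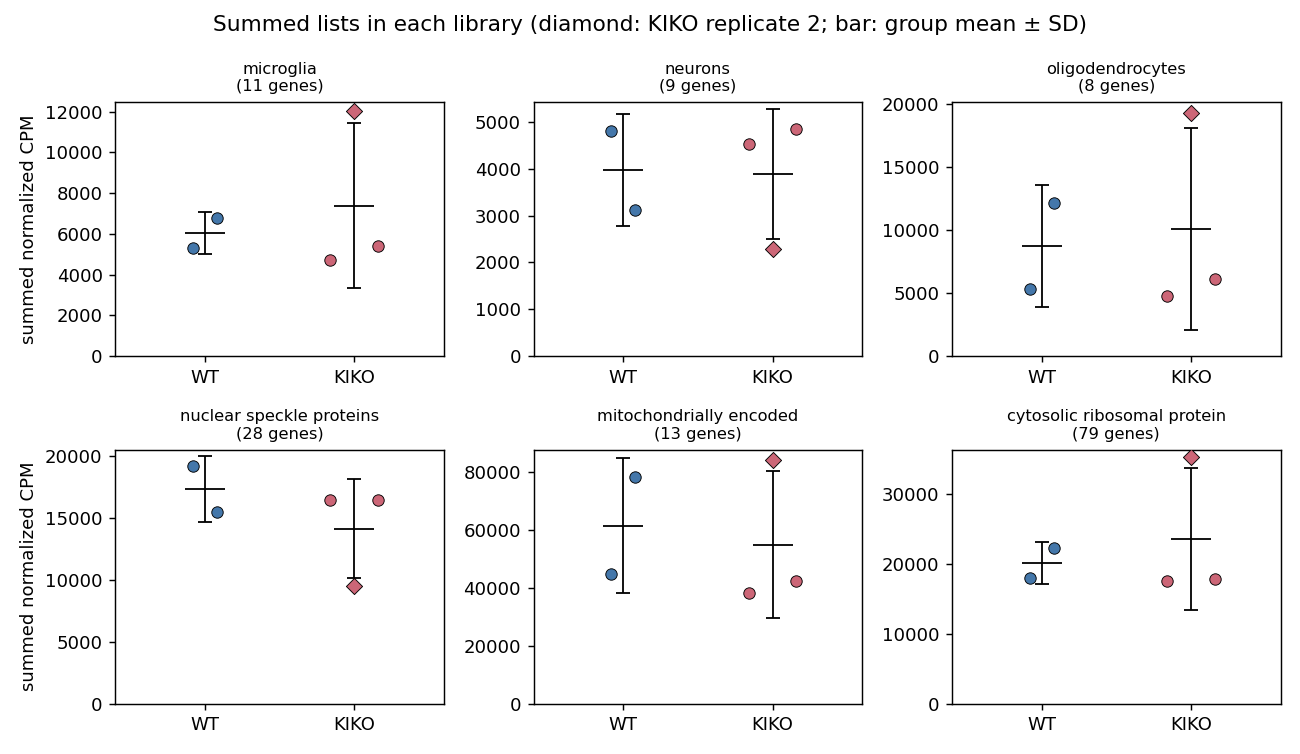
Summed normalized CPM (vertical axes, from 0) of 3 cell-type marker lists and 3 other lists in the WT and KIKO libraries, with group mean and SD as bars and KIKO replicate 2 as a diamond. KIKO replicate 2 is highest for microglia, oligodendrocytes, mitochondrially encoded and ribosomal protein genes and lowest for neurons and nuclear speckle proteins.

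The difference in KIKO replicate 2 also went with properties of the transcript, a look chosen after the values were seen. Genes whose longest transcript holds a run of at least 10 A had a median log2 difference of −0.45 (2450 genes), compared with 0.1 for the other 8435. In 4 classes of transcript length with about equal numbers of genes, the median was 0.3, 0.07, −0.09 and −0.41 from the shortest to the longest. Within the longest class it was −0.63 with such a run and −0.23 without, and within the shortest −0.29 and 0.36. The 3 members with a run of at least 10 A, *Malat1*, *Meg3* and *Kcnq1ot1*, had differences of −5.29, −1.48 and −1.78. The others lay between −0.91 (*Mirg*) and 1.16 (*Tug1*). By length, 7 of the 8, all but *Mirg*, are in the longest class (over 5158 bases). Of these, *Neat1* with 20771 bases, *Miat* with 9163 and *Tug1* with 6719 had differences of 0.66, 0.75 and 1.16. As the members were chosen on KIKO replicate 2, nothing is read from how A runs or length order them. The part of the A runs and of transcript length in these differences was not tested.

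Over the 5 libraries, log2 CPM of *Malat1* was closest to that of *Trip11* (r = 0.9998), *Rb1cc1*, *Pcdhgc5*, *Akap9* and *Bod1l* (r = 0.9993), among 2011 genes with enough counts and spread. For *Meg3* the closest were *Cpeb3* (r = 0.9997), *Ap2b1*, *Nsd3*, *Cacna1e* and *Cxxc4* (r = 0.9993). These values describe 5 libraries that share the deviation of KIKO replicate 2: *Akap9* had 1048.9, 876, 774.4, 45.6 and 733.7 CPM in WT replicates 1 and 2 and KIKO replicates 1, 2 and 3. With *Malat1*, 147 genes had a correlation above 0.99, and with *Meg3* 141 genes did.

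The genotypes were then compared in the 4 libraries that the choice of members did not use, WT replicates 1 and 2 against KIKO replicates 1 and 3. With edgeR's quasi-likelihood test, 1 of the 8 RNAs, higher in KIKO mice, passed the thresholds of a log2 fold change beyond ±0.75 and an unadjusted p under 0.05, beside 6.45% of the 10373 genes tested (2.94% higher, 3.51% lower). None of the 8 had a Benjamini-Hochberg adjusted p under 0.05, beside 0.0482% of the genes tested. The WT and KIKO values did not overlap for 3 of the 8 (*Malat1*, *Miat* and *Tug1*), or 37.5%, beside 38.8% of all genes tested. The 220 lincRNA and antisense genes tested had a median log2 fold change of 0.16, compared with −0.01 over all genes, and 19 were higher and 8 lower past the thresholds.

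*Miat* was the member past the thresholds. The mean CPM was 34.47 ± 17.8 (SD, n = 2) for WT libraries and 62.89 ± 8.64 (SD, n = 2) for KIKO libraries. The log2 fold change was 0.83 (standard error 0.38, 95% interval 0.05 to 1.61, edgeR adjusted p = 0.571). The call was lost with DESeq2 (log2 fold change 0.84), without WT replicate 1 (0.41), without KIKO replicate 1 (0.98) and without KIKO replicate 3 (0.71), and the log2 fold change was 1.51, still past the thresholds, without WT replicate 2. For *Tug1* the means were 29.61 ± 1.03 and 15.56 ± 5.27 CPM (SD, n = 2 each). Its log2 fold change was −0.95 (standard error 0.50, 95% interval −1.98 to 0.08, edgeR adjusted p = 0.637). It passed the thresholds when genes were required to have at least 10 counts in every library. The log2 fold change of *Tug1* was −0.62 without KIKO replicate 1 and −1.31 without KIKO replicate 3.

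None of the 6 more abundant members passed the thresholds in these 4 libraries. *Malat1* had a log2 fold change of −0.31 (95% interval −1.01 to 0.40, edgeR adjusted p = 0.876), with means of 33400 ± 6930 CPM for WT and 27110 ± 1780 for KIKO libraries (SD, n = 2 each). *Meg3* had 0.11 (interval −0.57 to 0.78, adjusted p = 0.962), *Mirg* 0.12 (−0.41 to 0.65, adjusted p = 0.941), *Kcnq1ot1* −0.08 (−0.63 to 0.47, adjusted p = 0.965), *Neat1* −0.14 (−0.68 to 0.39, adjusted p = 0.935) and *Snhg11* 0.25 (−0.35 to 0.84, adjusted p = 0.882) as log2 fold changes in the same edgeR test. The intervals of *Mirg*, *Kcnq1ot1* and *Neat1* lay inside ±0.75, while those of *Malat1*, *Meg3* and *Snhg11* did not. With a WT library left out, the remaining one is assumed to vary like the KIKO libraries. Without WT replicate 2, log2 fold changes were −0.50 for *Malat1*, 0.06 for *Snhg11* and 0.12 for *Neat1*. Without WT replicate 1 they were −0.07, 0.47 and −0.36, and none of these values was beyond ±0.75.

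**Figure D4:**
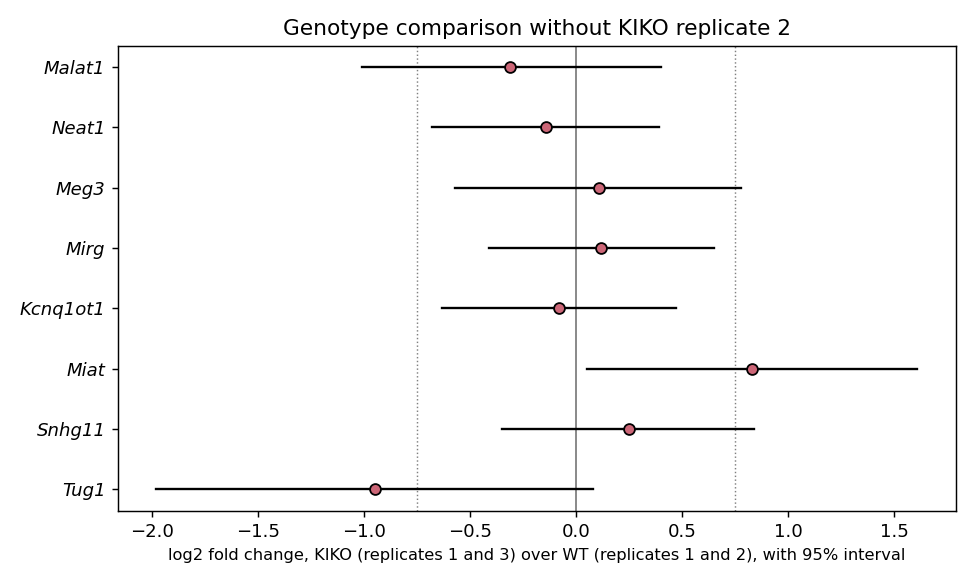
Log2 fold change of KIKO replicates 1 and 3 over WT replicates 1 and 2 (horizontal axis) for each RNA. Lines are 95% intervals derived from edgeR's quasi-likelihood test, with 0 as a solid line and ±0.75 as dotted lines. The interval of *Miat* (0.05 to 1.61) is the only one that does not include 0.

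With KIKO replicate 2 included, log2 fold changes between 3 KIKO and 2 WT libraries were −0.87 for *Malat1*, −0.46 for *Kcnq1ot1*, −0.24 for *Meg3*, −0.14 for *Mirg*, 0.07 for *Snhg11*, 0.14 for *Neat1*, 0.95 for *Miat* and −0.16 for *Tug1*. They are descriptions without a p, because the choice of members used that library. For *Malat1* the value was −1.99 with limma on the deposited log2 values and −2.82 with the replicate block. For *Miat* it was 0.5 without WT replicate 1 and 1.59 without WT replicate 2. In this comparison 1.2% of the 10889 genes tested passed the thresholds and 0% had an adjusted p under 0.05. The sign differed from the 4 libraries for *Meg3*, *Mirg* and *Neat1*.

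Other long noncoding and imprinted genes were compared in the same 4 libraries. Of 27 other named long noncoding RNAs, 20 were in the table and 14 were tested, 3 of them higher and 0 lower past the thresholds, beside 2.94% and 3.51% of all genes tested. This and the other gene lists were chosen with earlier results of these data known, so nothing is read from their counts past the thresholds. *Bc1*, a short neuronal RNA of dendrites, had 61.76 and 41.72 CPM in WT replicates 1 and 2 and 178.23 and 199.91 in KIKO replicates 1 and 3. Its log2 fold change was 1.87 (standard error 0.30, edgeR adjusted p = 0.00838). Without KIKO replicate 3, and with all 5 libraries, no gene had an adjusted p under 0.05 in edgeR's test, *Bc1* included. It had 27.82 CPM in KIKO replicate 2, below both WT libraries. *Rmst*, an RNA of neural development, had 12.95 and 12.14 compared with 40.22 and 79.15 CPM, a log2 fold change of 2.23 (edgeR adjusted p = 0.0621), and *Lncpint* had 45.82 and 22 compared with 53.63 and 78.14 CPM, with 0 in KIKO replicate 2 (log2 fold change 0.97, edgeR adjusted p = 0.522).

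Of the small nucleolar RNA host genes, the class of *Snhg11*, 4 were tested and none passed the thresholds, with *Snhg20* the most abundant at 85.67 and 106.94 CPM in WT replicates 1 and 2 and 90.69 and 102.49 in KIKO replicates 1 and 3. In the *Dlk1-Dio3* domain, 0 of 3 other genes tested passed. In the *Kcnq1* domain, 1 of 4 did: *Cdkn1c* was lower in KIKO mice with a log2 fold change of −1.14 (edgeR adjusted p = 0.45), and *Kcnq1ot1* did not pass. Of 23 other imprinted genes tested, 1 was higher (*Copg2*, log2 fold change 1.18, edgeR adjusted p = 0.538) and 1 lower (*Grb10*, which encodes an adaptor that dampens insulin signalling, log2 fold change −0.94, edgeR adjusted p = 0.584). None of 27 nuclear speckle protein genes and none of 21 paraspeckle protein genes tested passed the thresholds, beside 6.45% of all genes.

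In these 4 libraries, the choroid plexus markers, led by *Ttr*, summed to 12920 and 14000 CPM in WT and 9507 and 7921 in KIKO replicates 1 and 3, with 3 of 7 lower past the thresholds, and 3 of 9 neuronal markers were higher past them. Beside these counts, 2.94% of all genes tested were higher and 3.51% lower past the thresholds. The neuronal sums overlapped between the groups. None of the 8 markers of granule neurons, the most numerous neurons of the cerebellum, passed the thresholds, and they summed to 2549 and 1934 CPM in WT and 2357 and 2233 in KIKO replicates 1 and 3, with a median log2 fold change of 0.07. The 6 Purkinje neuron markers, led by *Itpr1*, summed to 504 and 324.6 CPM in WT and 735 and 654.5 in KIKO replicates 1 and 3, without overlap, with 2 of 6 (*Calb1* and *Car8*) higher past the thresholds. Of the 8 oligodendrocyte markers, whose sums overlapped between the groups, 2 were lower past them. Of the markers of astrocytes and Bergmann glia 1 of 7 tested was higher (*Gfap*, log2 fold change 1.17), as was 1 of 2 tested for monocytes and neutrophils (*S100a9*, log2 fold change 2.25). None of the microglial, endothelial, fibroblast and erythroid markers tested passed the thresholds.

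The sums of the library measures were also lower in the KIKO libraries of these 4. The mitochondrially encoded genes summed to 44960 and 78170 CPM in WT and 38370 and 42440 in KIKO replicates 1 and 3, with 2 of 7 tested lower and 0 higher past the thresholds. The genes of cytosolic ribosomal proteins summed to 18060 and 22270 compared with 17520 and 17870 CPM, with 8 of 76 tested lower and 0 higher. Of all genes tested, 3.51% were lower and 2.94% higher past the thresholds. Neither sum overlapped between the groups, although WT replicate 1 was close to the KIKO libraries for both. Among single genes, *mt-Nd1*, *mt-Nd2*, *mt-Co1* and *mt-Nd6* overlapped, and 38.8% of all genes tested did not overlap. The part of the cell-type markers and of these library measures in the values of *Bc1*, *Rmst* and *Miat* was not tested.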

How the data were processed

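Bulk RNA sequencing of cerebellum was analysed in 2 WT and 3 KIKO libraries, grouped by their labels. The authors used Trimmomatic for trimming, HISAT2 for alignment to mm10 and featureCounts for counting, and deposited raw counts per gene. They also deposited log2 values normalized by DESeq2, used here in one alternative only. The kits for extraction and library preparation that the labels name (one for lipid tissue, one of Illumina for stranded libraries) differ from those in the study's methods. In the table, 2 further columns of per-sample values match no sample label and were not used.

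Gene identifiers were matched to GENCODE M21 (99.6% matched). With edgeR 4.0.16 in R 4.3.3, genes were filtered by filterByExpr (minimum count 10, minimum total count 15), scaled by TMM and tested by the quasi-likelihood test with Benjamini-Hochberg adjustment over all genes tested. A gene passed the thresholds with a log2 fold change beyond ±0.75 and an unadjusted p below 0.05. The steps were tested on simulated counts with a common dispersion and no deviating library, so that test does not cover other conditions. Log2 CPM used a prior count of 0.5. The floor of 3 counts covers counting error only. The study gives 4 mice per group for its sorted cells, but the labels do not tie these libraries to animals, so p-values measure only the spread between these samples, which may be technical, and 2 against 2 libraries cannot give an exact permutation p below 0.33.

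The members and gene lists were chosen with earlier results of these data known. Named were the members, list genes past the thresholds in the 4-library test and otherwise up to 3 abundant ones, the most abundant marker of a list, the 5 genes most correlated with *Malat1* and *Meg3* (mean of at least 50 counts, SD of at least 0.5), and neighbouring genes. Some genes that this rule covers are not reported here. *Xist*, *Gm42418* and other genes were added after their values were seen. Alternatives were RLE factors, library size alone, factors without the members, looser and stricter filters, DESeq2 1.42.0, limma 3.58.1 with trend on the deposited log2 values, leaving out each library, and the replicate block.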

Additional observations from a re-analysis of the deposited data

How the results depend on the processing

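Without KIKO replicate 2, the 669 genes past the thresholds became 340 with DESeq2 and ranged from 307 (without KIKO replicate 3) to 1528 (without WT replicate 1) when a further library was left out. The 5 genes with an adjusted p under 0.05 became 21 with all genes of at least 1 count and 8 with at least 10 counts in every library, and ranged from 0 (without KIKO replicate 3) to 616 (without WT replicate 1), with 50 without WT replicate 2. A lone library of a group was assumed to vary like the other group. The member past the thresholds (1) became 2 with at least 10 counts and 0 with DESeq2, and 0 to 1 with a library left out. Log2 fold changes turned for *Neat1* (−0.36 to 0.12 with a library left out, 0.03 without KIKO replicate 1), *Mirg* (−0.13 without WT replicate 2 to 0.42) and *Kcnq1ot1* (−0.20 to 0.06 without WT replicate 1), and in no other member under the alternatives run on these 4 libraries. With all 5 libraries, the 131 genes past the thresholds became 383 with all genes of at least 1 count and 56 (without WT replicate 1) to 669 (without KIKO replicate 2) with a library left out. Genes with an adjusted p under 0.05 numbered 0 (131 at an unadjusted p under 0.05), 1 with all genes of at least 1 count and 0 to 5 with a library left out. The 5-library log2 fold changes, small beside their errors, also turned for *Neat1* (−0.09) and *Mirg* (0.16) without WT replicate 1, for *Snhg11* without WT replicate 2 (−0.13), without KIKO replicate 3 (−0.11) and with the replicate block (−0.11), and for *Tug1* without KIKO replicate 1 (0.19) and 3 (0.01). The replicate block gave 271 genes, 0 with an adjusted p under 0.05. The numbers only name the samples: deviations of same-numbered libraries correlated at 0.158 and 0.204, and WT replicate 1 with KIKO replicate 3 at 0.187. *Malat1* was at −2.82 with the block and −1.99 with limma. No block could be fitted without KIKO replicate 2. In KIKO replicate 2, 5 members were lower and 3 higher under each other scaling too, and with KIKO replicates 1 and 3 as the only reference. What caused them was not tested.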
